A study of Schmidtea mediterranea with 6 samples.

Results

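Among the abundant transcripts of whole planarians, 42 kept between 50% and 83.33% of their control level after RNA interference against Smed-myb-1. They were chosen on the same libraries that describe them. A member had a mean of at least 100 CPM (counts per 1000000 reads assigned to transcripts) in control animals, a ratio of mean CPM, myb-1 RNAi over control RNAi, above 0.5 and at most 0.8333, and its highest myb-1 RNAi library below its lowest control library. Of 80979 assembled transcripts, 1610 had the required control level, and 42 of these met the whole rule. Whether they were lower in myb-1 RNAi animals is therefore not a finding, and the values below describe how they were lower.

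The animals were Schmidtea mediterranea, freshwater flatworms of an asexual clonal strain named CIW4 in the growth protocol and described as wildtype in the labels. The myb-1 RNAi group ate food meant to silence Smed-myb-1, which encodes a Myb-type transcription factor. The control RNAi group was treated in the same way against unc22, a nematode gene that served as the control. Both groups were starved before treatment, had 3 feeds over 1 week and gave RNA from all tissues 6 days after the last feed, with 3 samples per group and 30 pooled animals per sample, called biological triplicates in the labels. Poly(A) RNA was sequenced.

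Planarians replace their tissues throughout life from dividing stem cells called neoblasts. Epidermal cells leave the neoblast pool, stop dividing, and pass through early and late progenitor states in a fixed temporal order while they move to the body surface. The study's title places Smed-myb-1 in the early part of this order. Myb proteins are DNA-binding regulators of transcription, and several of them are known in other animals for roles in proliferation and differentiation. No table used here gives gene names for the identifiers, so no role can be given to a member, the level of Smed-myb-1 itself was not analysed here, and the tissue could not be checked against marker genes. RNA of whole animals also cannot tell fewer cells of a type from less RNA per cell.

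The 6 libraries held 30311289 to 41145013 reads assigned to transcripts. One abundant transcript, SmedASXL_012104, took 4.81% of the reads of control library 3 and 0.524% to 1.83% of the reads of the other libraries, which lowers the CPM of every other transcript in control library 3. The members carried 1651 to 21159 reads each in a library. Members are ranked here by mean control CPM, from 1 to 42, and 3 values of a group are those of its libraries 1, 2 and 3 in this order. CPM is not divided by transcript length, so the ranks order the members by reads and not by molecules.

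**Figure D1:**
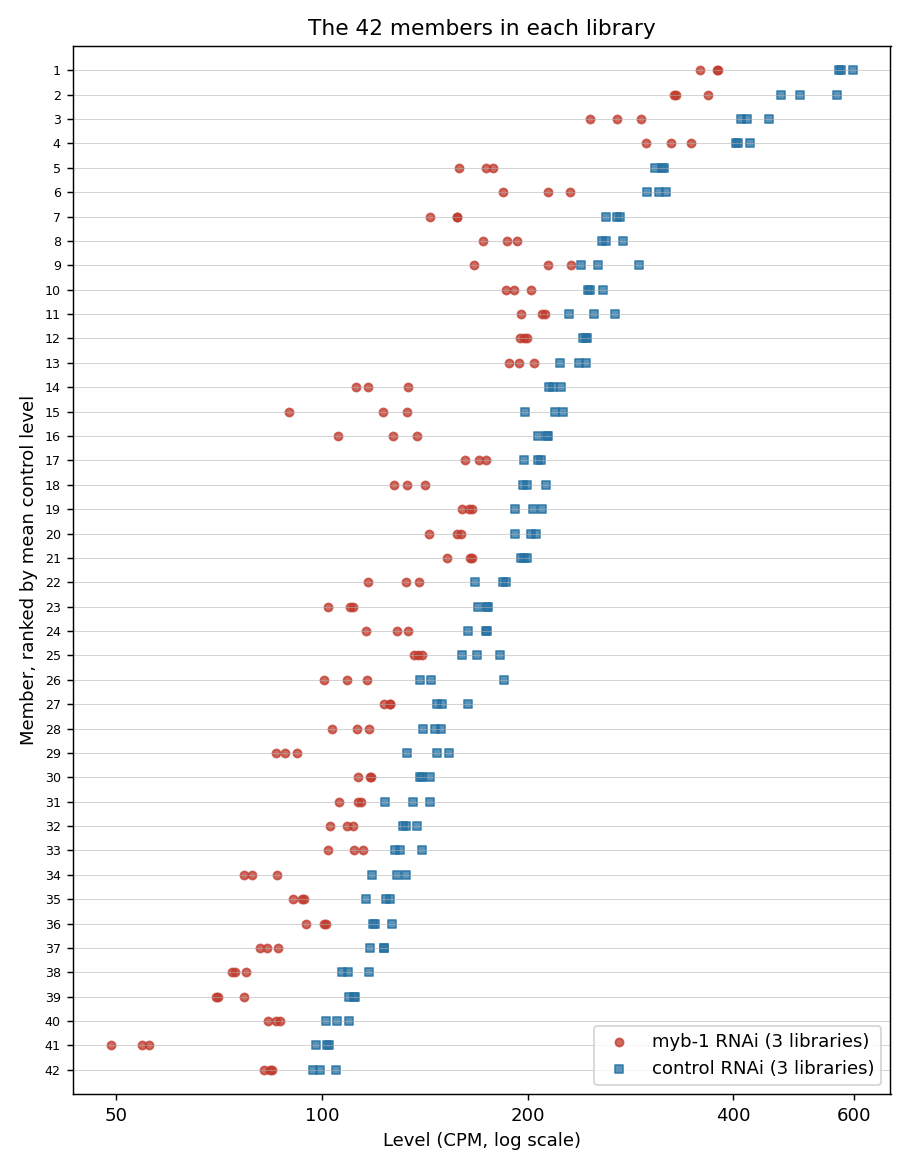
Level of each of the 42 members in each library, in CPM on a log axis, with members down the page by mean control level; circles are the 3 myb-1 RNAi libraries and squares the 3 control RNAi libraries. In every row the circles lie left of the squares, as the rule requires, with the narrowest distance in row 9 and the widest in row 41.

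The 42 members had mean levels of 53.1 to 372 CPM in myb-1 RNAi animals, against 100.3 to 581 CPM in control animals. They kept 52.8% to 83.3% of the control level, with a median of 74.99% and quartiles of 64.3% and 81.2%. The median member was 1.33-fold lower. On the log2(CPM + 0.5) scale the limma change of the members ran from -0.92 to -0.26 with a median of -0.41, beside medians of -0.025 over all 25832 transcripts tested and -0.004 over the 1610 with the required control level. In order of abundance, the members held ranks 321 to 3145 among all transcripts in myb-1 RNAi animals, against ranks 189 to 1602 in control animals. Of the 1000 transcripts with most reads, members made up 17 in myb-1 RNAi animals and 27 in control animals.

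The member with the highest control level was SmedASXL_008246. It had 380.0, 378 and 357 CPM in the myb-1 RNAi libraries, against 599, 571 and 574 CPM in the control libraries. The lowest control library was 1.503 times the highest myb-1 RNAi library. The means were 372 ± 12.8 CPM in myb-1 RNAi animals and 581 ± 15.5 CPM in control animals (SD, n = 3 each), so 63.95% of the control level was kept. The limma log2 change was -0.64 (SE 0.048), with a Benjamini-Hochberg adjusted p of 2.9e-08 over all tested transcripts. The authors' deposited table gave this transcript a DESeq2 log2 change of -0.605 (SE 0.075).

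The next members by control level did not share 1 size of fall. The member ranked 2 had 367, 329.5 and 327 CPM in the myb-1 RNAi libraries, against 567, 469 and 500.2 CPM in the control libraries, and kept 66.6%. The member ranked 3 had 293, 247 and 269.8 CPM in the myb-1 RNAi libraries, against 409.9, 451 and 418 CPM in the control libraries, and kept 63.3%. The member ranked 4 had 324, 347 and 298 CPM in the myb-1 RNAi libraries, against 423, 407 and 403 CPM in the control libraries, and kept 78.6%. Library 1 was the highest of its group for rank 2 in both groups, whereas for ranks 3 and 4 no library number was highest in both.

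The lowest share kept belonged to SmedASXL_002991, a member close to the lower limit of abundance. It had 55.9, 54.5 and 49.0 CPM in the myb-1 RNAi libraries, against 98.0, 102.3 and 101.7 CPM in the control libraries. This was also the member with the widest distance between the groups, its lowest control library being 1.753 times its highest myb-1 RNAi library. The means were 53.1 ± 3.62 CPM in myb-1 RNAi animals and 100.7 ± 2.35 CPM in control animals (SD, n = 3 each), a share of 52.8%. By summed reads, 5638 in myb-1 RNAi libraries against 10768 in control libraries, the share was 52.9% with an exact 95% counting interval from 51.2% to 54.6%. The limma log2 change was -0.92 (SE 0.059), with an adjusted p of 3.5e-09. In the authors' deposited table its DESeq2 log2 change was -0.881.

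A set of 6 members kept 50% to 60% of their control level, with limma log2 changes of -0.92 to -0.78, and 5 of the 6 passed the limma threshold of an adjusted p below 0.05, beside 2.04% of all tested transcripts and 5.84% of the 1610 with the required control level that were called lower. The rule used this contrast, so nothing is read from this count or from those of the other members. Beside SmedASXL_002991, they held ranks 5, 7, 14, 15 and 16. Rank 5 had 178, 174 and 159 CPM in the myb-1 RNAi libraries, against 317, 314 and 307 CPM in the control libraries. For rank 7 the values were 157, 158 and 144 CPM in the myb-1 RNAi libraries, against 273, 270.2 and 259.9 CPM in the control libraries. In both, the 3 control libraries lay close together and library 3 was the lowest of each group. Rank 14 had 112, 134 and 117 CPM in the myb-1 RNAi libraries, against 215, 218 and 224 CPM in the control libraries. Rank 16 had 127, 105 and 138 CPM in the myb-1 RNAi libraries, against 214, 207 and 213 CPM in the control libraries. In ranks 5, 7, 14 and 16 the SD was larger, as a percent of the mean, in myb-1 RNAi animals. In the whole set this was so for 29 of the 42 members, and the median SD was 4.94% of the mean in myb-1 RNAi animals and 3.73% in control animals. Among the 1568 other transcripts with the required control level the medians were 3.65% in myb-1 RNAi animals and 4.04% in control animals. The rule admits a transcript only if its libraries do not overlap, so these spreads are partly set by the choice.

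A further 13 members kept 60% to 70%, at ranks 1, 2, 3, 6, 8, 18, 23, 26, 29, 34, 37, 38 and 39. All 13, chosen on the same contrast, passed the limma threshold that 5.84% of the 1610 transcripts passed as lower, with log2 changes of -0.70 to -0.51 and adjusted p of 2.9e-08 to 0.038. Rank 23 had 102.1, 111.0 and 109.8 CPM in the myb-1 RNAi libraries, against 169, 174 and 175 CPM in the control libraries. Rank 29 had 85.6, 92.0 and 88.3 CPM in the myb-1 RNAi libraries, against 133, 147 and 153 CPM in the control libraries. The groups lay well apart in both. Rank 26 had 108.8, 100.8 and 116 CPM in the myb-1 RNAi libraries, against 185, 144 and 139 CPM in the control libraries. Control library 1 stood apart from the other controls, and the limma call of rank 26 was lost without myb-1 RNAi library 1, 2 or 3 or without control library 2, at adjusted p of 0.26, 0.12, 0.066 and 0.055, and with no filter on low values, at 0.19.

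Another 8 members kept 70% to 80%, at ranks 4, 9, 10, 20, 22, 24, 28 and 35. Of these, 7 passed the limma threshold that 5.84% of the 1610 transcripts passed as lower. The rule used this contrast, so nothing is read from the count. Rank 10 had 202.2, 186 and 191 CPM in the myb-1 RNAi libraries, against 247, 245 and 258 CPM in the control libraries. Rank 20 had 159.6, 143 and 158 CPM in the myb-1 RNAi libraries, against 202.1, 191 and 206 CPM in the control libraries. These 2 carry consecutive identifier numbers, the only such pair among the members, and kept 77.2% and 76.8%. Their log2 levels correlated over the 6 libraries at a Pearson r of 0.986, and at 0.815 after each group's mean was removed. The rule places every myb-1 RNAi library of a member below its control libraries, so the 0.986 is largely set by the choice. After the group means were removed, 6.85% of all pairs of members exceeded 0.8. The 2 transcripts share the same libraries and may share reads, which was not tested. Among the 1610 transcripts with the required control level, 268 pairs had consecutive numbers, and the log2 changes of a pair differed by a median of 0.13. The same value for pairs without consecutive numbers was not computed, so nothing is read from it about consecutive numbers.

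The remaining 15 members kept 80% to 83.33%, close to the upper limit of the rule. Their limma log2 changes were -0.32 to -0.26, at adjusted p of 0.00049 to 0.008. All 16 of the 1610 transcripts in this range of shares passed the threshold, the 15 members and the transcript whose libraries overlapped, so the count says nothing particular about the members. Rank 12, whose control SD of 0.601% of the mean was the smallest among the 42 members, had 199.7, 195 and 197 CPM in the myb-1 RNAi libraries, against 243, 241 and 244 CPM in the control libraries. The narrowest of them was rank 11, with 195, 212 and 209.9 CPM in the myb-1 RNAi libraries, against 229.5, 269 and 249.9 CPM in the control libraries. Its lowest control library was 1.081 times its highest myb-1 RNAi library. Without control library 2, ranks 11, 31 and 33 were not called, at limma adjusted p of 0.086, 0.089 and 0.07, and rank 33 was also not called without myb-1 RNAi library 2, at 0.07.

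In limma, 40 of the 42 members were called lower at an adjusted p below 0.05, beside 2.04% of all tested transcripts and 5.84% of the 1610 with the required control level. Nothing is read from this count or from those of the other fits. The authors' deposited table called 40 members lower at its DESeq2 adjusted p, beside 1.61% of its 19748 transcripts with one. On whole reads recovered from the deposited values, edgeR called 41, beside 2.13%, and DESeq2 called 42, beside 2.91% of the 15315 transcripts it gave an adjusted p. All 4 fits called 38 members, and the share of all transcripts called by all 4 is not given here. The deposited log2 changes of the members ran from -0.88 to -0.23 and lay closer to 0 than limma's by 0.028 to 0.046.

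The 2 members that limma did not call were SmedASXL_015921 and SmedASXL_009962, which are named because of their values. SmedASXL_015921, rank 9, had 167, 214 and 231 CPM in the myb-1 RNAi libraries, against 253, 291 and 239.5 CPM in the control libraries. Myb-1 RNAi library 3 came close to control library 3, whose value was 1.036 times as high, the narrowest distance among the members. Its limma log2 change was -0.36 (SE 0.145) with an adjusted p of 0.34, and 2 of 19 other fits called it, both with DESeq2, at 0.0018 and 0.0062, with a range over all of them of 0.0018 to 0.68. SmedASXL_009962, rank 15, had 89.4, 133 and 122.8 CPM in the myb-1 RNAi libraries, against 198, 219 and 225 CPM in the control libraries. Its groups were far apart, with a ratio of 1.49 between the nearest libraries, but myb-1 RNAi library 1 stood below the other myb-1 RNAi libraries. The limma log2 change of SmedASXL_009962 was -0.91 (SE 0.168) with an adjusted p of 0.061. It was called in 12 of 19 other fits, with an adjusted p of 9.4e-05 without robust moderation and 4.9e-09 without myb-1 RNAi library 1, and the range over all of them was 1.4e-15 to 0.23. The 2 members that the authors' deposited table did not call were others, ranks 33 and 42, each with a deposited adjusted p of 0.076.

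**Figure D2:**
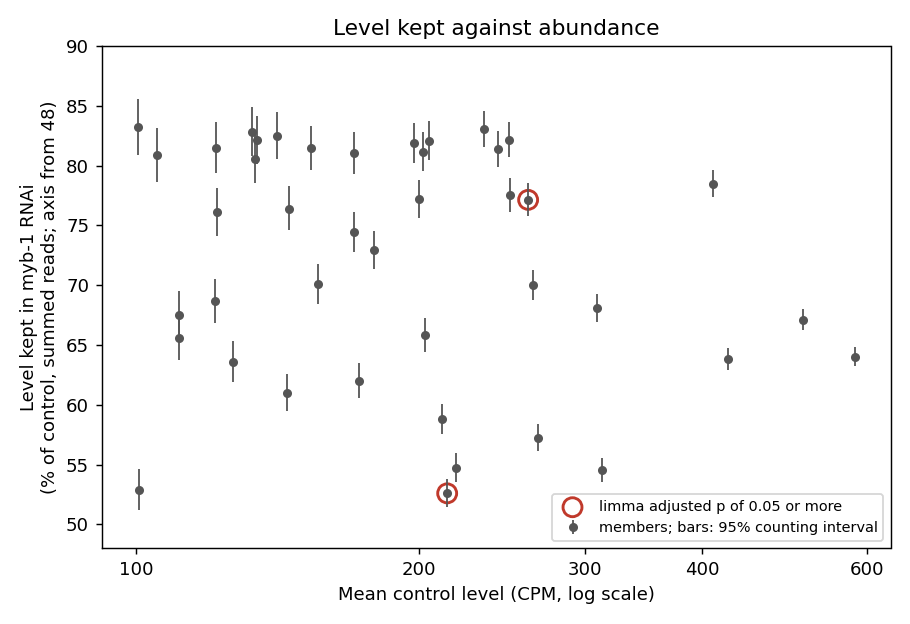
Share of the control level kept in myb-1 RNAi (percent, from summed reads, axis from 48) against mean control level (CPM, log axis) for the 42 members, with exact 95% counting intervals as bars; open circles mark the 2 members with a limma adjusted p of 0.05 or more. By group means, the 4 members with the highest control level kept 63.3% to 78.6%, and the 15 that kept over 80% had control levels of 100.3 to 249 CPM; the intervals of these 15 all overlap.

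The exact 95% interval of the share kept, from summed reads, was 1.62 to 4.71 percentage points wide, and in 32 of the 42 members it ended below the upper limit of 83.33%. The rule holds the share by group means at or under that limit, so this count is partly set by the choice. The interval leaves out the spread between libraries and is too narrow as a range for the animals. The 15 members nearest that limit kept 80.2% to 83.3% by group means, and their counting intervals all overlap one another. The difference between the group means was 1.89 to 21.9 times the pooled SD of the libraries, with a median of 6.54. The rule admits only transcripts whose groups do not overlap, so these distances are partly set by the choice. Between the share kept and the control level, Spearman rho was -0.20 over the 42 members, which share the same libraries. The control level is the denominator of the share, and the rule limits both, so no trend is read from this value. By control level, members were 15 of 604 transcripts from 100 to 150 CPM, 8 of 297 from 150 to 200 CPM, 13 of 289 from 200 to 300 CPM, 4 of 195 from 300 to 500 CPM and 2 of 225 from 500 CPM.

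Together the members took 6291, 6204 and 6289 CPM in the myb-1 RNAi libraries, against 8822, 8915 and 8746 CPM in the control libraries. The means were 6261 ± 49.3 CPM in myb-1 RNAi animals and 8828 ± 84.6 CPM in control animals (SD, n = 3 each), or 0.626% and 0.883% of the reads. The sum was 70.9% of its control level, and 2566 CPM lower. SmedASXL_008246 accounted for 209.6 CPM of this. The 5 largest losses, at ranks 1, 2, 3, 5 and 7, made up 31.0%, and 11 members made up 50% of the loss. By size of fall, the members that kept 60% to 70% carried 43.4% of the loss, those that kept 50% to 60% carried 23.0%, those from 70% to 80% carried 15.8%, and the 15 nearest the limit carried 17.8%.

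**Figure D3:**
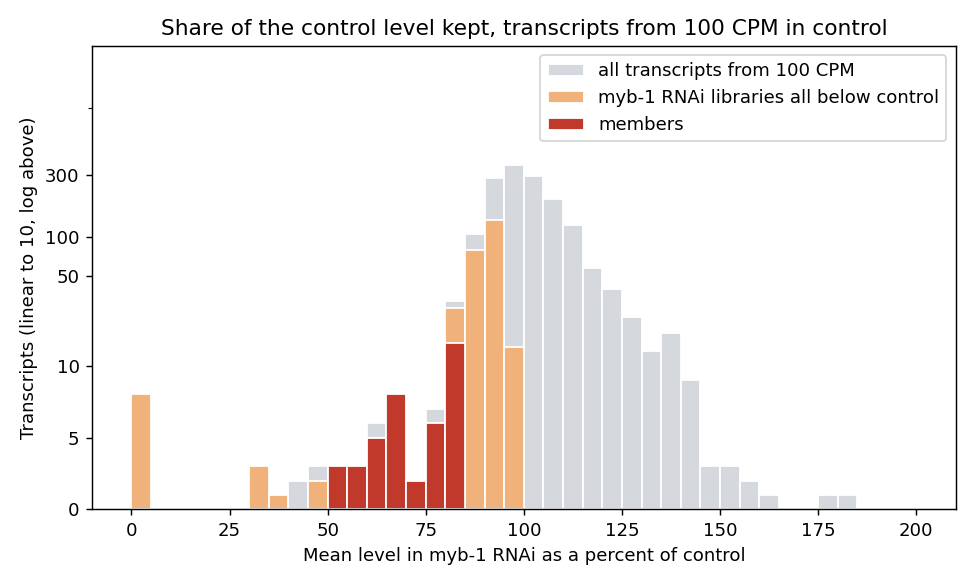
Number of transcripts by share of the control level kept in myb-1 RNAi (percent, steps of 5) among the 1610 transcripts with at least 100 CPM in control; the count axis is linear to 10 and logarithmic above. Grey is all of them, orange those with every myb-1 RNAi library below every control library, and red the members, which thin out below 80% and border on a much larger number of transcripts above 83.33%.

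The upper limit of the rule does not mark a break in the data, and the lower part of the range is sparse. Between 50% and 80%, each step of 5 percentage points held 2 to 8 of the 1610 transcripts. The step from 80% to 85% held 32, that from 85% to 90% held 104, and that from 90% to 95% held 285. Below 50% there were 17, of which 8 kept less than 5% and none lay between 5% and 30%. In all, 18.4% of the 1610 had every myb-1 RNAi library below every control library, and so had 10.9% of all tested transcripts.

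Values just inside and just outside the limits were close to each other. At the upper limit, the last member kept 83.31% and the first transcript outside it 83.38%, with 103.7, 105.6 and 94.9 CPM in the myb-1 RNAi libraries, against 128, 115 and 122 CPM in the control libraries. At the lower limit, SmedASXL_002991 is followed outside by a transcript that kept 49.2% of 101.1 CPM. On abundance, the last member had 100.3 CPM in control animals and the first transcript outside had 98.5 CPM. The demand that the groups do not overlap left out 3 transcripts that met the other limits. Of these, 1 kept 61.1% with libraries far apart, at 479, 202 and 155 CPM in the myb-1 RNAi libraries, against 514, 527 and 327 CPM in the control libraries. Another had a highest myb-1 RNAi library of 149.1 CPM, against 149.0 CPM in its lowest control library.

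Rises of the same sizes outnumbered the members among small changes but, except without myb-1 RNAi library 2, not among larger ones. A mirrored rule (at least 100 CPM in control, 1.2-fold to 2-fold higher, every myb-1 RNAi library above every control library) took 107 transcripts, beside the 42 members; of the 1610 transcripts, 24.3% had every myb-1 RNAi library above every control library. Among changes under 1.43-fold there were 23 members and 94 rises. From 1.43-fold to 2-fold there were 19 members and 13 rises. With TMM or median-of-ratios scaling, totals without SmedASXL_012104, lane 2 alone, or 1 library left out, the small changes stayed at 20 to 37 falls and 83 to 104 rises. The larger ones were 15 to 21 falls and 11 to 20 rises, with the order turned once, at 15 falls and 18 rises without myb-1 RNAi library 2. Both sets were picked by their change in these libraries, and the difference between the counts was not tested. The level limit applies to control animals in both rules. It thus falls on the higher group of a fall but on the lower group of a rise, and the counts are not fully matched. Transcripts at or under 50% of the control level whose groups did not overlap numbered 14, and they summed to 751 CPM in myb-1 RNAi animals, against 5632 CPM in control animals.

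Within a group, the members did not move as a block, and neither did the other transcripts with the required control level. After each group's mean was removed, pairs of members correlated over the 6 libraries at a median Pearson r of 0.022, beside 0.135 for pairs of the other 1568 transcripts with the required control level. The share of pairs over 0.8 was 6.85% among members and 8.94% among the others. The share under -0.8 was 4.41% among members and 3.89% among the others. All pairs share the same 6 libraries, so these values are a description. No library was the extreme one for most members. The highest myb-1 RNAi library was library 1 for 17 members, library 2 for 14 and library 3 for 11. The lowest was library 1 for 12, library 2 for 18 and library 3 for 12. In control animals the highest library was library 1 for 12 members, library 2 for 18 and library 3 for 12. The lowest control library was library 1 for 17, library 2 for 9 and library 3 for 16. Control library 2 was the highest control for 42.9% of the members and 51.8% of the 1610 transcripts. Over the 1610 transcripts control library 3 was the lowest control for 53.8%, against 38.1% of the members. The rule itself uses the lowest control library, so the share among members is partly set by the choice.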

How the data were processed

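Per the labels' protocols, libraries were TruSeq with poly(A) selection. Bowtie2 2.2.4, bcl2fastq 1.8.3 and DESeq2 appear in the submitters' processing notes with no roles. How reads were counted, and on which build, is not given in the sources used here. In the labels, the strain field names another CIW strain per sample; it was not used. One deposited table holds the authors' CPM of mapped reads per lane, per the file headers; its columns match groups only, lane 2 was used, and 6 columns were not. The other, the authors' DESeq2 output, holds log2 fold changes with SE, p-values, adjusted p-values and deposited signal columns (normalised counts). In these, 100% of values were whole multiples of 1 step per library within 0.001, which gave whole reads. The row * was left out; it held 5.42% to 6.24% of a library's reads. CPM were computed here from these columns.

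The filter was 0.5 CPM in 3 or more libraries. Fits were made with limma 3.58.1 (R 4.3.3; trend, robust) on log2(CPM + 0.5), which understates changes of low transcripts, with 2-sided p-values adjusted by Benjamini-Hochberg over 25832 transcripts. Other fits used edgeR 4.0.16 (quasi-likelihood) and DESeq2 1.42.0 on the recovered reads, other pseudocounts, filters and scalings, cyclic loess, and left-out libraries. The fits were also run on simulated counts with 1 spread setting for all transcripts, a check of the code from which nothing is read about these data. Members and settings were chosen with earlier results of these data known. By rule, the member of highest control level and that with the lowest share kept are named, since no names are paired with the identifiers. Gene lists were therefore not tested, and no sequence was used here. Libraries of 1 group differed beyond sampling noise, with a mean chi-square per transcript of 2.83 to 38.3 over pairs of libraries. A plain mean can be raised strongly by 1 transcript such as SmedASXL_012104, whose part was not separated. The upper value is therefore not read as the noise of a typical transcript. Counting intervals cover counting error only. The p-values set the difference between the groups against the spread between the 3 samples per group. In limma that spread was moderated toward a trend over all tested transcripts.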

Additional observations from a re-analysis of the deposited data

How the results depend on the processing

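The number of members followed the limits of the rule: 42 became 88 from 50 CPM, 19 from 200 CPM, 21 with a ratio of at most 0.75 and 134 with at most 0.9, by construction of the limits. The mirrored rises, added after seeing the data, went to 181, 58, 36 and 240 with the same limits. With overlap allowed there were 45 members. TMM, median-of-ratios scaling, totals without SmedASXL_012104 and lane 2 gave 41, 37, 54 and 42, of which 40, 36, 42 and 38 were among the 42. Leaving out 1 library gave 40 to 58 members and 101 to 120 mirrored rises. In the rule were 29 members under all 6 left-out libraries and 36 under all 3 scalings; of the 15 nearest the upper limit, 5 and 9. Between 36 and 42 members were called lower in the 19 other fits and at an adjusted p below 0.01 (39 members, beside 1.17% of all tested transcripts), and 35 were called in all 19. The rule used this contrast, so nothing is read from these counts or from that of the replicate block below. Shares over all transcripts are given only for the main limma fit, edgeR and both DESeq2 fits. None is given for the remaining fits, the replicate block among them, or for the count over all 19. The median log2 change was -0.457 to -0.375 over 17 alternatives. The sum in myb-1 RNAi animals went to 6325 CPM, against 9036 CPM in control animals, with totals without SmedASXL_012104, which by construction raises all CPM; it was 6247 to 6289.7 CPM with 1 library left out. SmedASXL_008246 and SmedASXL_002991 were called in every alternative, at adjusted p of 5.8e-23 to 5.2e-06 and 1.8e-28 to 2.4e-06. The same-numbered libraries' deviations correlated at 0.082, 0.034 and 0.035, under the 0.1 required to treat them as pairs. The replicate block called 41 members, one more being SmedASXL_009962; for 4 of 6 libraries the best match in the other group bore the same number, a hint from the data only. Lane 3 alone was not run.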
